A study of Mus musculus with 40 samples.

Results

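The lung of male C57BL/6 mice, a standard inbred strain, was compared between 4 weeks and 1 week of age. The study measured total RNA from whole kidney, lung and heart in 40 samples, 8 groups of organ and age, with 1 Affymetrix mouse array per sample; its design text gives 5 animals for each kidney and lung group. The lungs compared here are the 5 samples titled 4wk Lung and 4 of the 5 titled 1wk Lung, 9 of the 40 arrays. No group carries a mutation or received a treatment according to the labels, which call lungs of 4 weeks slowly proliferating and lungs of 1 week rapidly proliferating. The lungs of 8 weeks (5 arrays) are given beside them, and kidneys of 4 weeks and of 1 week (5 arrays each) serve to show where the lung differs. The array titled 1wk Lung 4 was left out because it carries heart transcripts. On it the surfactant gene Sftpc read 1982.5, against 23328 to 28922 on the 4 arrays kept, and that of the cardiac myosin gene Myh6 was 36022, against 611 to 1868. Where putting this array back ends a call, or moves a value or a count of calls by more than 1.5 times, that value is given; counts of 1 or 2 calls in a list, which moved by 1 gene under some settings, are not followed in this way.

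In mice most alveoli form after birth. Secondary septa grow out from the walls of the saccules, and at their tips myofibroblasts that make smooth muscle actin and respond to platelet-derived growth factor lay down elastin. The capillaries of the walls then remodel, flat type 1 cells spread over the gas exchange surface, type 2 cells secrete surfactant, and resident macrophages settle in the air spaces. Septation is largely complete by weaning, so an animal of 1 week is in the midst of it and an animal of 4 weeks is past its peak.

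Signals are linear array intensities, scaled to the same trimmed mean on every array. Changes are log2(signal + 16) at 4 weeks minus that at 1 week, from limma with the Benjamini-Hochberg adjustment over all genes tested, and a gene is called at an adjusted p under 0.05. Of 18193 genes on the array, 13808 reached a mean signal of 117.9 in at least 1 lung group and were tested. Pairwise correlations of log2 signals were 0.969 to 0.981 among arrays of 4 weeks and 0.968 to 0.976 among those of 1 week, against 0.906 to 0.924 between the ages. The log2 difference between the 3' and 5' probe sets of actin, a sign of RNA quality, was 0.36 to 0.54 at 4 weeks and 0.36 to 0.46 at 1 week (exact permutation test, two-sided, p = 0.206). The summed signal of the erythroid genes was 8325 to 8912 at 4 weeks and 19002 to 33682 at 1 week (exact permutation p of the mean log2 level = 0.0159, the smallest this design allows, 0.119 after adjustment over 15 measures). The sum of the liver genes was 1152 to 1368 at 4 weeks and 1642 to 5173 at 1 week, with the same p values. The sum of the cardiomyocyte genes was 10843 to 23623 at 4 weeks and 7710 to 19822 at 1 week, against 386402 on the array left out. The sum of squamous epithelial genes was 1145 to 1615 at 4 weeks and 1098 to 11177 at 1 week, the highest on array 1wk Lung 5. The skeletal muscle sum was 1545 to 2327 at 4 weeks and 1638 to 14176 at 1 week (exact permutation p of the mean log2 level = 0.286), and the adipocyte sum 4129 to 14473 at 4 weeks and 2246 to 6229.6 at 1 week (exact permutation p = 0.429). The part of these admixtures in the results below was not tested.

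At 4 weeks 2767 genes were higher than at 1 week and 2740 lower, together 5507 of 13808 or 39.9% (20% higher, 19.8% lower). Of these, 991 (7.18% of genes tested) had changed at least 2-fold, 500 upward (3.62%) and 491 downward (3.56%). At least 4-fold changes numbered 66 upward and 83 downward, and at least 8-fold changes 17 and 16. The median change of all genes tested was -0.0061. For 33.4% of genes the arrays of the 2 ages did not overlap. With the left-out array put back, 3991 genes were called. Arrays of whole lung cannot tell fewer cells of a type from less RNA per cell, and this holds for every change below. Where a mean signal lies under 117.9, the size of the change depends on the offset of 16. Every count of list members below that rose or fell in lung from 1 to 4 weeks stands against 20% of all genes higher and 19.8% lower. For counts in kidney no share over all genes is given.

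**Figure D1:**
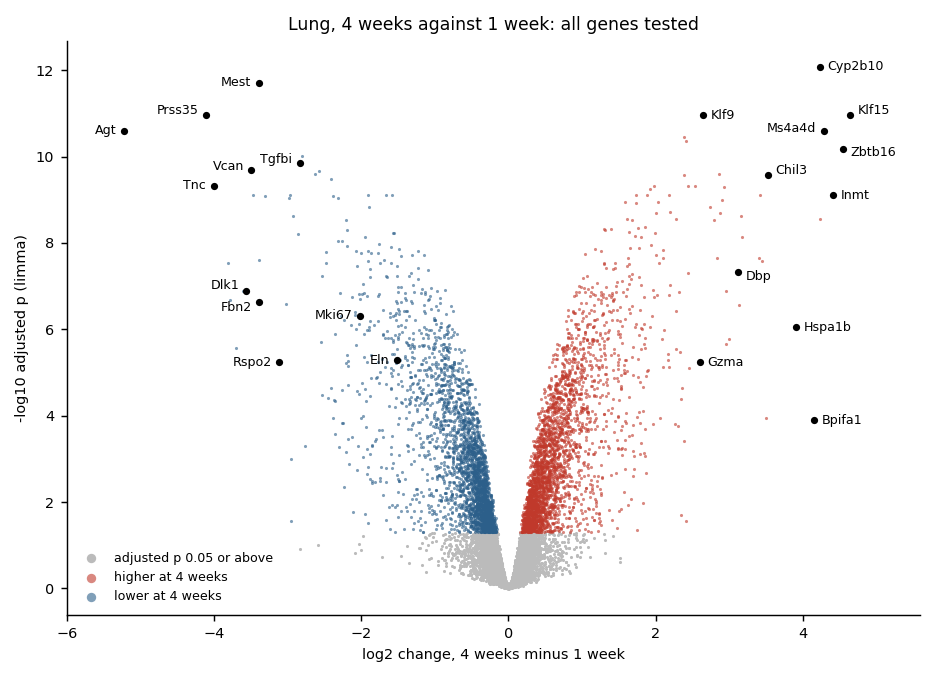
Each point is 1 of 13808 genes tested, with the log2 change at 4 weeks minus 1 week on the x axis and -log10 of the adjusted p from limma on the y axis; red and blue points are the 2767 higher and 2740 lower genes and named genes are in black. Klf15, Zbtb16 and Inmt lie farthest to the right, and Agt, Prss35 and Tnc farthest to the left.

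The largest rise was that of Klf15, a zinc finger transcription factor induced by glucocorticoids. Its signals, in ascending order as for the genes below, were 1165, 1237, 1326, 1437 and 1479 at 4 weeks, against 29.9, 36.5, 40.3 and 44.3 at 1 week (log2 change 4.65, SE 0.13, adjusted p = 1.11e-11). Zbtb16, which encodes another glucocorticoid-induced zinc finger factor, gave 3652, 3684, 3876, 4458 and 4559 at 4 weeks, against 150.0, 158, 159 and 161 at 1 week. For both genes the arrays of the ages did not overlap, which was a condition for the 20 largest rises named here. Inmt, the methyltransferase gene of indole amines that marks alveolar fibroblasts, averaged 25355 ± 3528 (SD, n = 5) at 4 weeks and 1223 ± 447 (SD, n = 4) at 1 week, a change of 4.42 (5.24 with the left-out array put back). Ms4a4d, of a family of membrane-spanning proteins, changed by 4.29, and Lrat, whose enzyme stores retinol as esters, by 4.23. Cyp2b10, a cytochrome P450 gene of drug oxidation, rose 18.8-fold, with 6084 to 6943 at 4 weeks and 307 to 374 at 1 week. The next rises were Bpifa1 (4.16, SE 0.64), which encodes a secreted airway defence protein, the heat shock genes Hspa1b (3.91) and Hspa1a (3.51), and the macrophage lectin gene Chil3 (3.52, 4.71 with that array). Hspa1a and Hspa1b are near-identical copies whose probe sets can share transcripts. They varied widely among lungs of 4 weeks, Hspa1b giving 3376, 7551, 11071, 15058 and 15602, while the 4 lungs of 1 week lay between 497 and 676. The remaining 10 of the 20 largest rises, from 3.45 down to 2.95, were Serpina3n, Fabp1, Fam107a, Cxcl14, Rbmxl2, Nr1d1, Dbp, Osgin1, Cyp1a1 and Sult1d1.

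The largest fall was that of Agt, which encodes angiotensinogen, the precursor of angiotensin. Its signals were 16.7, 23.8, 25.9, 27.7 and 32.2 at 4 weeks, against 1327, 1515, 1566 and 1670.0 at 1 week (log2 change -5.22, SE 0.16, adjusted p = 2.50e-11). The 4-week signals are close to the offset, and the sum of the liver genes given above was also lower at 4 weeks; its part in this fall was not tested. With the left-out array put back the change was -4.24 for Agt, -3.42 for Prss35, -3.16 for Stfa2l1, -2.95 for Trim67, -2.75 for Slc17a2 and -2.44 for Opcml, all still called. Prss35, of a serine protease family, fell to 72.6 to 103 at 4 weeks, against 1599 to 2100.1 at 1 week (-4.11). Tnc, which encodes tenascin C, a matrix protein of growing septa, gave 211, 251, 284, 334 and 376 at 4 weeks, against 4356, 4466, 4966 and 5674 at 1 week, a 16.1-fold fall. Dlk1 (-3.56) and Mest (-3.40), both imprinted genes of fetal growth, Vcan (-3.49), the versican proteoglycan gene, and Fbn2 (-3.39), which encodes the fetal fibrillin, were among the 20 largest falls in which the arrays of the ages did not overlap. So were Rspo2 (-3.11), whose product amplifies Wnt signals, Spon2 (-3.31), Opcml (-3.03), Capn6 (-2.99), Aoc3 (-2.96) and Pappa2 (-2.92), whose protease cleaves IGF-binding proteins. Slc4a1 (-3.70), the red cell anion exchanger gene, fell beside the erythroid sum given above. The others were the stefin genes Stfa2l1 (-3.81) and Stfa3 (-3.60), a cluster of close copies whose probe sets can share transcripts, and Trim67, Slc17a2, Pole and Cpa1, all under 117.9 at 4 weeks.

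Genes of the cells and matrix of septation mostly fell, and not in lung alone. In kidney 18 of 22 genes of the myofibroblast and smooth muscle list fell between the same ages (median -1.05). So did 15 of 19 elastic fibre genes (-1.26) and 24 of 28 fibrillar collagen genes (-1.27). In lung, 16 of 22 tested genes of alveolar myofibroblasts and smooth muscle fell and 2 rose. Their median change was -0.88, against -0.0061 over all genes, with 19.8% of genes falling. With the left-out array put back 11 fell. The skeletal muscle sum reached 2327 at 4 weeks and 14176 at 1 week, while 0 of 15 tested skeletal muscle genes were called by limma, and its part in these falls was not tested. Acta2, smooth muscle actin, gave 4913, 5488, 6448, 6849.7 and 7558 at 4 weeks, against 16298, 16802, 19573 and 20724 at 1 week. The arrays did not overlap, and the fall was 2.95-fold (log2 change -1.56, SE 0.16, adjusted p = 3.71e-06). Actg2, enteric smooth muscle actin, changed by -2.15, Myh11, smooth muscle myosin, by -1.58, and Aspn, the asporin gene, by -2.02. Fgf18, a growth factor made by septal myofibroblasts, gave 152, 172, 194, 205 and 232 at 4 weeks, against 713, 787, 806 and 822 at 1 week (-1.96). Hhip, an inhibitor of hedgehog signals, fell by 1.67, and Tagln, a smooth muscle actin-binding protein gene, by 0.92. With the left-out array put back the values were -0.41 (adjusted p = 0.773) for Hhip and -0.37 (adjusted p = 0.555) for Tagln. Pdgfra, the receptor that marks septal myofibroblasts and alveolar fibroblasts, rose. It gave 6180.3, 6195, 6213, 6827 and 6939 at 4 weeks, against 2104, 2540.3, 2579 and 2831 at 1 week, a change of 1.36 (SE 0.10, adjusted p = 1.57e-07).

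Elastic fibre genes showed the same direction: 12 of 19 tested fell and 2 rose (median -0.65). Eln, tropoelastin itself, gave 5691, 6396, 6614, 7022 and 8043 at 4 weeks, against 16045, 18935, 20412 and 22132 at 1 week (-1.52, SE 0.16, adjusted p = 5.21e-06). Fbn2 averaged 61.8 ± 28.1 (SD, n = 5) at 4 weeks and 746 ± 70.1 (SD, n = 4) at 1 week. Emilin1, which encodes a glycoprotein of elastic fibres, fell by 1.30. Ltbp2, a fibrillin-related gene, fell by 1.66, and was -0.78 (adjusted p = 0.402) with the left-out array put back. Efemp1, fibulin 3, rose, with 2687 to 3185 at 4 weeks and 855 to 1016 at 1 week (1.62). Lox, whose enzyme crosslinks elastin and collagen, was not called: its signals were 1185, 1308, 1834, 2009 and 2281 at 4 weeks and 1918, 1927, 2005 and 2121 at 1 week, so the ages overlapped (-0.25, adjusted p = 0.234). The mean over its probe sets gave -0.37 (adjusted p = 0.0368). Only 8 elastic fibre genes fell with the left-out array put back.

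**Figure D2:**
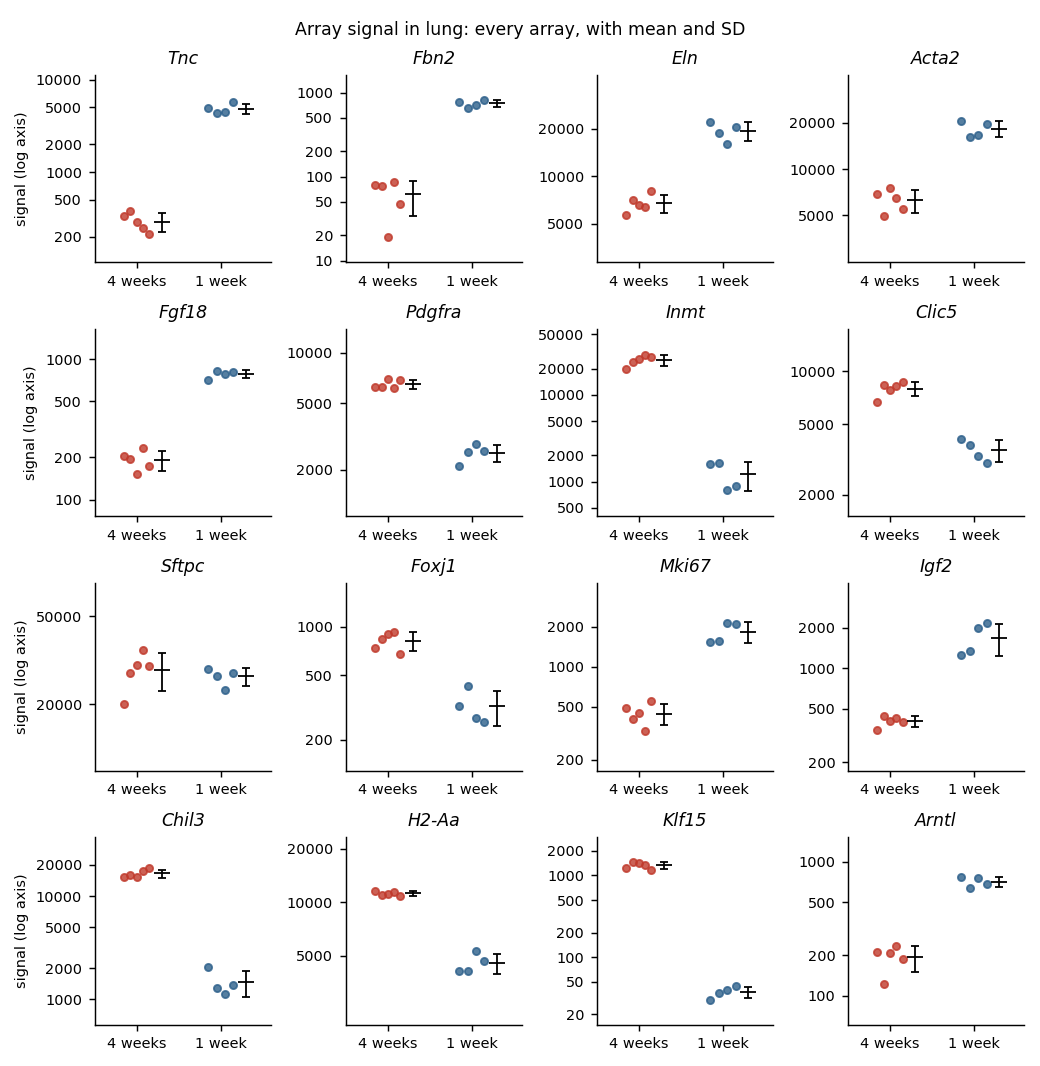
Array signals of 16 genes on log axes, one panel per gene: red points are the 5 lungs of 4 weeks, blue points the 4 lungs of 1 week, and black marks the mean with its SD. Tnc, Fbn2, Eln, Acta2, Fgf18, Mki67, Igf2 and Arntl are lower on every array of 4 weeks, Pdgfra, Inmt, Clic5, Foxj1, Chil3, H2-Aa and Klf15 higher on every one, and the ages overlap for Sftpc.

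Among fibrillar collagens and the enzymes that process them, 14 of 28 fell and 5 rose. Col1a1, the main chain of type 1 collagen, gave 3254, 3859.7, 5211, 5259 and 5887 at 4 weeks, against 9714, 10562, 10972 and 13539 at 1 week (-1.27). Col5a1 fell by 1.41, and P4ha3, a prolyl hydroxylase subunit gene, by 2.12. Col3a1 gave 16999.6, 19854, 20470.3, 21437 and 24039 at 4 weeks and 22592, 23221, 23656 and 26611 at 1 week and was not called (-0.23, adjusted p = 0.0651), though it was without array 4wk Lung 4 (-0.29, adjusted p = 0.0205), and the mean over its probe sets gave -0.75 (adjusted p = 7.65e-06). Pcolce2, whose product enhances procollagen cleavage, rose to 9752 ± 634 (SD, n = 5) at 4 weeks, against 2912 ± 236 (SD, n = 4) at 1 week. Dcn, the decorin proteoglycan gene, rose by 1.10, and was 0.54 (adjusted p = 0.405) with the left-out array put back. Of 20 provisional and matricellular matrix genes, 11 fell and 5 rose, the falls led by Tnc, Vcan, Ccn4 (-2.31) and Thbs2 (-2.09), thrombospondin 2. Basement membrane genes fell in 14 of 27 and rose in 5. Without array 1wk Lung 5, or with the left-out array put back, 3 rose. Lama1 (-1.94) and Nid2 (-1.54), a laminin and a nidogen gene, and Frem2 (-1.38), a gene of epithelial basement membranes, were among those that fell. Of 22 matrix proteases and inhibitors, 10 fell and 7 rose. Mmp14, a membrane-bound collagenase, fell to 1565 to 1716 at 4 weeks, against 4621 to 5431 at 1 week. Adam12 fell by 1.89, while Mmp3, stromelysin, rose by 1.80 and Timp3, a protease inhibitor, by 1.10.

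Fibroblast genes split. Of 19 genes of alveolar fibroblasts and lipofibroblasts, 7 rose and 8 fell, against 3 and 2 with the left-out array put back. Inmt had the largest change of the list. Meox2, a mesenchymal homeobox gene, fell to 579 to 772 at 4 weeks, against 3157 to 3823 at 1 week (-2.38). Gyg, glycogenin, fell by 1.57. Wnt2 (-2.27) and the alcohol dehydrogenase gene Adh1 (-1.32) fell, and were -1.43 (adjusted p = 0.106) and -0.27 (adjusted p = 0.822) with the left-out array put back. No pericyte gene rose and 4 of 14 fell (28.6%, against 19.8% of all genes). Among the falls were Rgs5 (-1.39), a regulator of G proteins, and Pdgfrb (-0.56), the receptor pericytes are known by.

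More genes fell than rose in the hedgehog, Wnt and FGF pathways, which pattern the septa. This held in kidney too, where 9 of 12, 18 of 33 and 6 of 16 fell and 0, 1 and 1 rose. In lung, 7 of 12 hedgehog genes fell and 1 rose (median -0.86). Without array 1wk Lung 2, or with the left-out array, none rose. The transcription factor genes Gli2 (-1.59), Gli1 (-1.04) and Gli3 (-0.89) all fell. Shh, the ligand made by epithelium, gave 1206, 1224, 1396, 1418 and 1431 at 4 weeks, against 2600.5, 2801, 2856 and 3049 at 1 week (-1.07), and -0.08 (adjusted p = 0.953) with the left-out array put back. Wnt genes fell in 17 of 33 and rose in 5 (11 and 4 with that array). Wnt5a, a ligand of mesenchyme, fell to 208 to 338 at 4 weeks, against 1329 to 1715 at 1 week (-2.32, -1.73 with the left-out array), and Wnt11 (-1.71), the secreted inhibitor Wif1 (-1.71) and the receptor Ror1 (-1.22) fell as well. In the FGF pathway 8 of 16 fell and 2 rose, against 4 and 2 with the left-out array. The ligand genes Fgf18 and Fgf9 (-1.49) were among the falls, and the ligand genes Fgf1 (0.74) and Fgf7 (0.65) were the rises.

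TGF-beta and BMP genes fell in 12 of 35 and rose in 7, against 5 and 7 with the left-out array. Tgfbi, a matrix gene induced by TGF-beta, fell most, to 1722, 1959, 2005, 2289.6 and 2379.5 at 4 weeks, against 13348, 14589.5, 15195 and 16210.0 at 1 week (-2.84, -2.05 with the left-out array). The ligand gene Tgfb2 fell by 1.40, and Fstl1, which binds BMPs, by 1.59. Chrdl1, a BMP antagonist, rose by 1.43. In the PDGF, VEGF and angiopoietin group 7 of 22 rose (31.8%) and 6 fell (27.3%). Angpt1, the ligand of Tek, rose by 0.91, Tek by 0.76, and Vegfa, which type 1 cells make, by 0.38. Over all genes 20% rose, 19.8% fell and 39.9% were called in either direction. Of 12 retinoic acid pathway genes 5 (41.7%) rose and none fell. Besides Lrat they included Aldh1a1 (1.46, 2.31 with the left-out array), an enzyme that makes retinoic acid, and Cyp26b1 (1.43), one that breaks it down. Aldh1a2, the main synthetic enzyme of the embryo, was at 476 to 698 at 4 weeks and 483 to 627 at 1 week (0.01, adjusted p = 0.968).

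**Figure D3:**
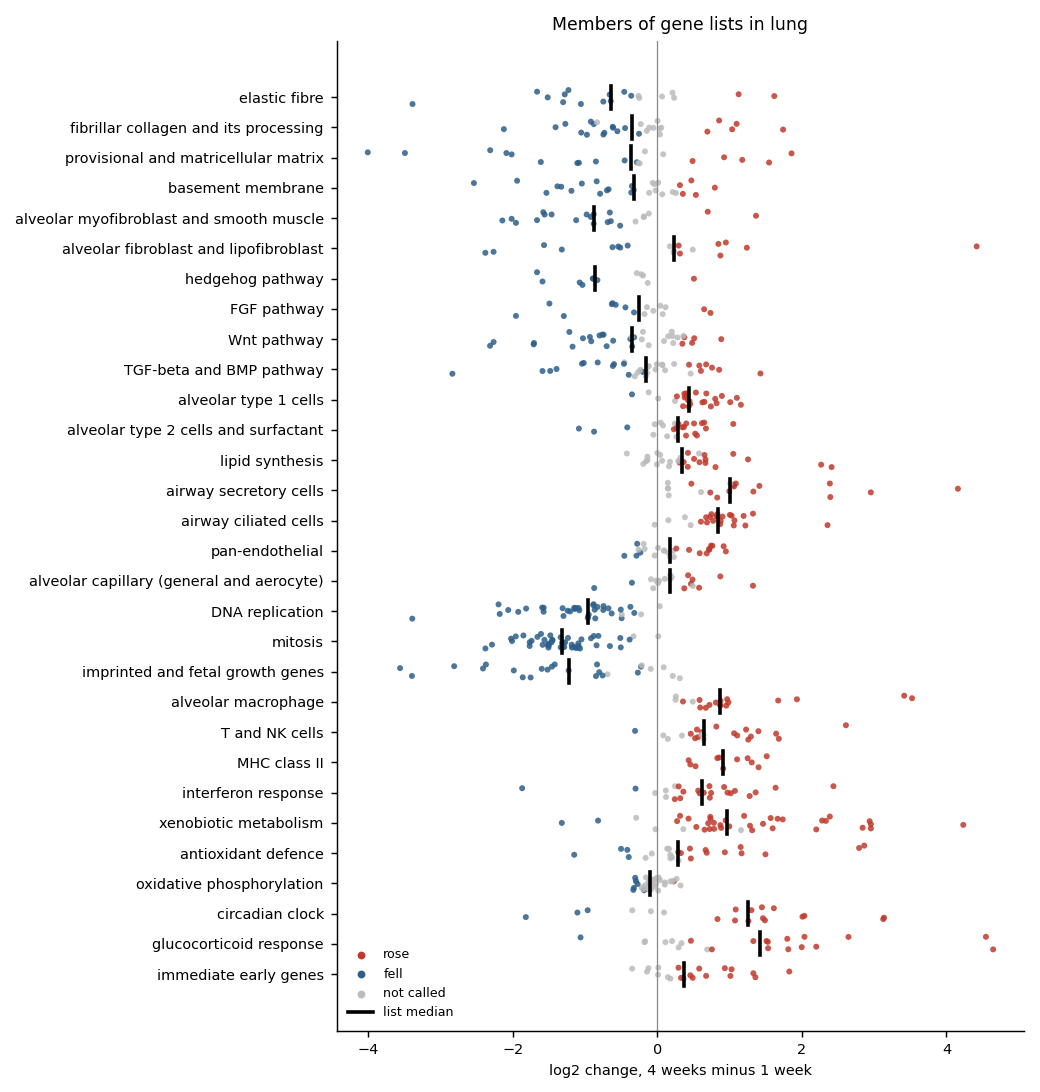
Each point is a tested gene of the list named at the left, placed by its log2 change at 4 weeks minus 1 week; red points rose, blue points fell, grey points were not called and the bar is the list median. The medians of the matrix, myofibroblast, hedgehog, FGF, Wnt and TGF-beta lists lie left of 0, with mitosis and imprinted genes the lowest of the lists drawn, and those of the epithelial, endothelial, immune, xenobiotic, clock and glucocorticoid lists lie right of 0.

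Type 1 cell genes rose in 21 of 25 and fell in 1 (median 0.44), against a background of 20% of genes rising. The rises were small: the largest, Clic5, an intracellular chloride channel gene of type 1 cells, was 6709, 7819.7, 8238, 8349.8 and 8679 at 4 weeks, against 3022, 3328, 3826 and 4125 at 1 week (1.16, SE 0.11). Cav2, of the caveolae that fill these cells, rose by 1.01 and Gprc5a by 0.89 (1.57 with the left-out array). Hopx, a homeobox regulator, gave 15542 to 21525 at 4 weeks and 10807 to 12561 at 1 week (0.74). Aqp5, the water channel, rose by 0.80 and was 2.11 (adjusted p = 0.121) with the left-out array put back. Pdpn, podoplanin, rose by 0.43 and was 0.83 (adjusted p = 0.0569) with that array. Ager, the receptor that is the most used marker of type 1 cells, gave 18442, 22386, 23176, 25642 and 27593 at 4 weeks and 16389.5, 16493, 17779.9 and 18671 at 1 week. The lowest array of 4 weeks lay below the highest of 1 week, and the change was 0.42 (adjusted p = 0.00543), against 1.55 (adjusted p = 0.184) with the left-out array. With that array 8 type 1 genes rose and none fell, and the list median was 1.26.

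The surfactant genes were already high at 1 week. Sftpc gave 20101, 27667, 29840.0, 30221 and 35377 at 4 weeks and 23328, 26967, 27854 and 28922 at 1 week, with the ages overlapping (0.08, SE 0.14, adjusted p = 0.689). Sftpd, surfactant protein D, gave 16025, 21128, 22283, 23079 and 25261 at 4 weeks, against 11336, 12070.4, 15124 and 15461 at 1 week (0.67, adjusted p = 9.15e-04). Sftpa1 rose by 0.65 and Sftpb by 0.40. With the left-out array, itself low in surfactant transcripts, these 3 were 1.86 (adjusted p = 0.133), 1.86 (adjusted p = 0.139) and 1.41 (adjusted p = 0.18). Of 24 type 2 cell genes, 14 rose and 3 fell (1 and 0 with that array). Scd1, the desaturase that makes unsaturated fatty acids, rose by 1.05 (1.91 with that array). Cpm, a surface carboxypeptidase, fell by 1.09 and was -0.31 (adjusted p = 0.724) with that array. Lipid synthesis genes rose in 14 of 28 and none fell (8 with that array, 11 without array 4wk Lung 4). The adipocyte sum had a median of 4459.9 and a highest value of 14473 at 4 weeks, against 4598 and 6229.6 at 1 week. Of 9 tested adipocyte genes 2 rose and 1 fell (median 0.83), and their part in these rises was not tested. Chka, which starts phosphatidylcholine synthesis, rose by 0.80.

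Most conducting airway genes rose. The airway secretory list rose in 13 of 19 with no fall (median 1.01), and with the left-out array in 8 (median 1.83). The ciliated list rose in 20 of 24 with no fall (median 0.84; 20 with that array). Bpifa1 gave 5232, 6916, 7408, 8153 and 11663 at 4 weeks, against 196, 451, 519 and 610.1 at 1 week, and Bpifb1, a related secreted protein gene, changed by 2.39. Aox3, an aldehyde oxidase gene, changed by 2.39. These were 3.08 and 3.19 with the left-out array put back. Cyp2f2, the P450 of club cells, rose by 1.00 and was 2.22 (adjusted p = 0.0832) with the left-out array. Scgb1a1, the main club cell secretory protein gene, was not called, at 25856 to 41466 at 4 weeks and 26608 to 32054 at 1 week (0.16, adjusted p = 0.316), but was without array 4wk Lung 1 (0.26, adjusted p = 0.0455). Foxj1, the master regulator of motile cilia, gave 682, 736, 844, 904 and 930.3 at 4 weeks, against 259, 272, 326 and 431 at 1 week (1.32, adjusted p = 7.44e-06). Spag6l, of the central apparatus of cilia, changed by 2.35, Rsph1, of the radial spokes, by 1.22, and the dynein light chain gene Dynlrb2 by 1.07. Rsph1 gave 1.88 and Dynlrb2 1.78 with the left-out array.

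Genes of fluid and ion transport rose in 8 of 15 and fell in 1 (4 and 0 with the left-out array). Scnn1a, the sodium channel subunit that clears alveolar fluid, gave 3432 to 5079.7 at 4 weeks and 1913 to 2293 at 1 week (1.09, 1.70 with the left-out array). Atp1b1, a subunit of the sodium pump, rose by 1.30, the amino acid transporter Slc6a14 by 1.44 (2.46 with that array) and the ligase Nedd4l, which removes sodium channels, by 0.73. Among 41 lung transcription factors 19 fell and 8 rose (7 and 6 with the left-out array). Mycn (-2.37), of growing progenitors, and Sox4 (-1.46) fell, and Cebpd, a factor of acute phase and glucocorticoid responses, rose by 1.81. Nkx2-1, the lung identity factor, was at 107 to 212 at 4 weeks and 114 to 202 at 1 week (0.05, adjusted p = 0.853).

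Endothelial genes had small changes. Of 25 pan-endothelial genes, 10 rose and 4 fell (median 0.17; 1 fell with the left-out array). Clec14a (0.95), Vwf (0.92), von Willebrand factor, and Icam2 (0.72) rose. Kdr, the main VEGF receptor, gave 4157, 4167, 4220.4, 4403 and 4492 at 4 weeks and 3737, 4306, 4498 and 4542 at 1 week (0.01, adjusted p = 0.932), and Pecam1 changed by 0.23 (adjusted p = 0.194). Among alveolar capillary genes 7 of 19 rose and 2 fell. Car4, a carbonic anhydrase of the capillary cells called aerocytes, gave 2594 to 4148 at 4 weeks and 1750.3 to 2204 at 1 week (0.87). Other genes of the list did not follow it: Ednrb (0.02, adjusted p = 0.893) and Apln (-0.09, adjusted p = 0.465) were not called, and Tbx2 fell (-0.35, adjusted p = 0.0281). Hpgd, which breaks down prostaglandins, rose by 1.32 (2.17 with the left-out array). Car4 also counts in the alveolar macrophage list, and Emp2, another of the capillary rises, in the type 1 list. Other called genes are likewise shared between lists, among them Hhip, Fgf18, Aspn, Wnt2, Sftpa1 and Sftpd, so the list counts are not independent. Aplnr, the apelin receptor of general capillary cells, fell by 0.87. Of 19 vascular tone genes 6 rose (31.6%) and 4 fell (21.1%), with 2 falls when the left-out array was put back. Ptgis, prostacyclin synthase, gave 3507 to 4406 at 4 weeks and 769.7 to 1199 at 1 week (2.11). Ace, which converts angiotensin, rose by 0.70, opposite in direction to Agt.

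Genes of cell division fell together. Of 49 mitosis genes, 47 fell and none rose (median -1.32), and of 37 DNA replication genes 34 fell and none rose (median -0.96), against 19.8% of all genes falling. Mki67, the proliferation marker, gave 331, 406, 449, 487 and 547 at 4 weeks, against 1539, 1572, 2100.5 and 2134 at 1 week (-2.01, SE 0.17, adjusted p = 4.83e-07). Ube2c, the ubiquitin enzyme of mitotic exit, gave 195, 229.6, 234, 326 and 327 at 4 weeks, against 1091, 1124, 1530.3 and 1614 at 1 week (-2.29). Top2a, the topoisomerase that unlinks sister chromatids, fell by 1.77, Melk by 2.38, Nuf2, of the kinetochore, by 2.03, and Rrm2, a subunit of the enzyme that makes deoxynucleotides, by 2.20. No array of 4 weeks reached any array of 1 week for these 6 genes, and the ages did not overlap for 33.4% of all genes. A mixed list of 17 genes held cell cycle inhibitors and pocket proteins together with cyclin genes of the D and G types. In it 5 genes rose and 4 fell, so these counts are not counts of inhibitors alone. Trp53inp1, a target of p53, was at 1.31 and Cdkn1a, the p21 inhibitor, at 0.46. The falls were those of Cdkn1c, Cdkn2c, Rbl1 and Ccnd2, which encodes cyclin D2 and not an inhibitor (-0.74).

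The promoters of 3 of these genes are shown because the cell cycle homology region (CHR), an element with the letters TTTGAA at which the DREAM complex represses G2/M genes in quiescent cells, is described in such promoters. Each line gives the 250 bases before the RefSeq start (build GRCm38.p6), 5′ to 3′ on the gene's strand, with matches to TTTGAA on either strand in capitals. They lie at chr11:99024190-99024439, minus strand for Top2a, chr7:135716380-135716629, minus strand for Mki67 and chr2:164769679-164769928, plus strand for Ube2c.
Top2a: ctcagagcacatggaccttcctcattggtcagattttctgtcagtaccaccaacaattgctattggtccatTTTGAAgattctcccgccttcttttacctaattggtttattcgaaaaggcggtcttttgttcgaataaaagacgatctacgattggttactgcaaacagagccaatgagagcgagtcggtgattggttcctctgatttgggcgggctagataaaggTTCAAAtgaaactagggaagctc
Mki67: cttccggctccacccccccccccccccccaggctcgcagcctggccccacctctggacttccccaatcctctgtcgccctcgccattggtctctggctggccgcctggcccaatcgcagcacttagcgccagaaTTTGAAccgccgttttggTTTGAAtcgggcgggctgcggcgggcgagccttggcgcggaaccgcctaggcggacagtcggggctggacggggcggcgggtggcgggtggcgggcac
Ube2c: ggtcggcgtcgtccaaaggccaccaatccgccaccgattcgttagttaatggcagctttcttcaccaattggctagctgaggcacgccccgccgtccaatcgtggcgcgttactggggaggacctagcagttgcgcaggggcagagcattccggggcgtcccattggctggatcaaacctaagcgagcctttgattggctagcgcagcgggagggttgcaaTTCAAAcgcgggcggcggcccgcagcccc

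Top2a and Mki67 hold 2 matches each and Ube2c 1, which begins at base -29 from the start. Of 42 mitosis genes with a RefSeq window, 15 (35.7%) held a match in these 250 bases, against 5 of 32 DNA replication genes (15.6%) and 1466 of 11094 genes tested in lung (13.2%). In windows of 300 bases that add the 50 after the start, the shares were 31 of 42 (73.8%), 5 of 32 and 14.7%. A match is a description of these letters and not a measured site of binding.

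Imprinted and fetal growth genes fell in 19 of 25 and none rose (median -1.23). Mest gave 724, 756, 773, 799.8 and 810.3 at 4 weeks, against 7691, 8086, 8689 and 8715 at 1 week, and Dlk1 83, 105, 119, 141 and 154 at 4 weeks, against 1070.0, 1312, 1867 and 2281 at 1 week. Peg3, an imprinted zinc finger gene, fell by 2.41 and Mdk, the growth factor midkine, by 2.81. In the growth hormone and IGF axis 8 of 17 fell and 6 rose. The ligand gene Igf2 gave 346, 394, 407, 429 and 442 at 4 weeks, against 1260.0, 1339.6, 1988 and 2162 at 1 week (-1.99), and Igf1 1089, 1228, 1559, 1583 and 1598 at 4 weeks, against 3597, 3657, 3672 and 4465 at 1 week (-1.45). Igf2bp3, which binds Igf2 transcripts, fell by 1.23. The binding protein genes Igfbp3 (1.72) and Igfbp6 (1.80) rose. Among 22 enzymes that modify chromatin, 15 fell and 3 rose: Ezh2, the Polycomb methyltransferase, fell by 1.36 and Uhrf1, which maintains DNA methylation, by 1.59, while the Polycomb subunit Cbx7 rose by 1.40.

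Most genes of alveolar macrophages, of T and NK cells and of MHC classes I and II rose. Of 19 alveolar macrophage genes 16 rose and none fell (median 0.87). Chil3 gave 15178, 15354, 16019.7, 17476 and 18658 at 4 weeks, against 1133, 1276, 1365 and 2048 at 1 week (3.52, SE 0.14, adjusted p = 2.70e-10). Krt79, a keratin of alveolar macrophages, averaged 965 ± 60.7 (SD, n = 5) at 4 weeks and 241 ± 10.4 (SD, n = 4) at 1 week (1.93), and Fabp1, a fatty acid binding protein gene, changed by 3.42. General macrophage and monocyte genes rose in 10 of 24 with no fall, among them Mertk (1.11), a receptor for dying cells. All 11 tested MHC class II genes rose (median 0.91; 10 without array 1wk Lung 5), as did 12 of 13 of the MHC class I and proteasome genes. H2-Aa gave 10858, 10978, 11105, 11499.8 and 11655 at 4 weeks, against 4105, 4132, 4657 and 5327 at 1 week (1.31, 2.10 with the left-out array), H2-Eb1 changed by 1.51 and the invariant chain gene Cd74 by 1.10 (1.84 with that array). MHC genes are alike in sequence, and their probe sets may share transcripts. T and NK cell genes rose in 15 of 22 and fell in 1. Gzma, granzyme A of cytotoxic cells, gave 774, 1111, 1372, 1502 and 1629 at 4 weeks, against 117, 125, 256 and 332 at 1 week (2.61), Klrd1, an NK receptor, changed by 1.68 and Il7r, the interleukin 7 receptor, by 1.29.

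Dendritic cell genes rose in 8 of 14 and fell in 1. Cd209a rose by 1.77 and the chemokine gene Ccl17 by 1.49. The member that fell was Fscn1 (-1.91), an actin bundler also made by other cells. B cell genes rose in 5 of 19, but in only 2 or 3 when any single array was left out. Interferon response genes rose in 18 of 24 and fell in 2. Ifit3 gave 1330.2, 1442, 1519, 1709 and 1730.4 at 4 weeks, against 232, 277, 285 and 294 at 1 week (2.44), whereas Rsad2, the antiviral viperin gene, fell by 1.87, with 849.9, 862, 917, 954 and 1189.9 at 4 weeks and 2456, 2652, 4730.4 and 4921 at 1 week. Host defence genes rose in 14 of 19 with no fall (9 with the left-out array), including Pigr (1.60), which carries IgA into the airway. Of 14 neutrophil and mast cell genes 5 fell and 2 rose. The granule genes Ngp (-1.38) and Camp (-2.03) and the mast cell genes Cpa3 (-1.04) and Cma1 (-0.93) fell. The rises were Mmp8 (0.45) and Kit (0.58), which also counts in the capillary list. The neutrophil genes S100a8, S100a9, Csf3r and Mpo were among those not called. Of 6 tested erythroid genes 4 fell. Alas2, the first enzyme of heme synthesis in red cells, gave 2090.3, 2429, 2483, 2494 and 2788 at 4 weeks, against 6004, 7809, 11599.8 and 13923 at 1 week.

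Detoxification genes rose: 32 of 38 xenobiotic metabolism genes rose and 2 fell (median 0.97). Fmo2, the lung flavin monooxygenase, gave 11139, 13783, 14496, 15106 and 16769.5 at 4 weeks, against 1659, 1765, 1788 and 2148 at 1 week (2.94, 3.60 with the left-out array). Cyp1a1, the P450 induced through the aryl hydrocarbon receptor, gave 1689.8, 2286, 2938, 3339 and 3956 at 4 weeks, against 283, 312, 369 and 398 at 1 week (2.95). Gsta3, a glutathione transferase gene, rose by 2.84 (3.53 with that array). Of 24 antioxidant genes 12 rose and 4 fell, the falls numbering 2 without array 1wk Lung 3 and 2 with the left-out array. Sod3, extracellular superoxide dismutase, gave 4079, 4757, 4904, 5390.1 and 5406 at 4 weeks, against 587, 641, 678 and 732 at 1 week (2.86). Gpx3, secreted glutathione peroxidase, rose by 2.79 and Gclc, which starts glutathione synthesis, by 1.50. Of 39 oxidative phosphorylation genes 1 rose (2.56%) and 6 fell (15.4%), with changes between -0.33 and 0.32. Without array 1wk Lung 3, 2 fell, and none did with the left-out array. Of 22 fatty acid oxidation genes 1 rose (4.55%) and 4 fell (18.2%), with 1 fall without array 1wk Lung 5 or with the left-out array. Over all genes 20% rose and 19.8% fell. Glycolysis genes rose in 6 of 17 and fell in 1, led by Pfkfb3 (1.30), a regulator of glycolytic rate (2 rises with the left-out array).

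Genes of the circadian clock and of the glucocorticoid response were among the largest rises. Glucocorticoids rise in the rodent after the first weeks of life, and the clock is a loop in which Arntl drives E-box genes such as Per1 and Nr1d1, whose products repress it. The labels give no hour of tissue collection. Of 22 glucocorticoid response genes 14 rose and 1 fell (median 1.42). Besides Klf15 and Zbtb16 these were led by Klf9, another Krüppel-like factor, with 9938, 10928, 10929, 10969.6 and 11969 at 4 weeks, against 1671, 1717, 1754 and 1797 at 1 week (2.64, SE 0.07). Fkbp5, a chaperone of the glucocorticoid receptor, rose by 1.51. Of 19 clock genes 13 rose and 3 fell (median 1.26). Dbp, an output factor of the clock, gave 2297, 3128, 3753, 3937 and 3999.7 at 4 weeks, against 285, 288, 413 and 552 at 1 week, and Nr1d1, a repressor of Arntl, 989.9, 1025, 1278, 1286 and 1602 at 4 weeks, against 87.6, 88.1, 113 and 262 at 1 week. Per1 (2.04) and Nr1d2 (2.01) rose, and Arntl fell, with 121, 189, 209, 211 and 234 at 4 weeks and 636, 677, 757 and 767 at 1 week (-1.82). Immediate early genes rose in 12 of 21 and none fell. Fos gave 1058, 1469, 1503, 1949.9 and 2276 at 4 weeks, against 572, 598, 629 and 661 at 1 week (1.36), and Dusp1, a phosphatase induced by stress and glucocorticoids, rose by 1.33. The SD of Dusp1 was 1437 at 4 weeks and 255 at 1 week.

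Promoters of 5 clock and glucocorticoid genes are shown because they hold elements known from the clock loop. The E-box CACGTG is bound by Arntl with its partner, the D-box TTATGTAA by Dbp and by Nfil3, which competes with it, and the element TAGGTCA (RORE) by the Nr1d and Ror receptors. Ciart, Per3 and Nfil3 were chosen after their values were seen: Ciart, a clock repressor gene, rose by 1.07, Per3 rose by 1.46, and Nfil3 fell by 1.11. The 250 bases before the RefSeq start (GRCm38.p6) are given 5′ to 3′ on the gene's strand, with matches on either strand in capitals: the E-box in Ciart (chr3:95882229-95882478, minus strand), Klf15 (chr6:90462326-90462575, plus strand) and Per1 (chr11:69098699-69098948, plus strand), the D-box in Per3 (chr4:151044666-151044915, minus strand) and the RORE in Nfil3 (chr13:52981040-52981289, minus strand).
Ciart: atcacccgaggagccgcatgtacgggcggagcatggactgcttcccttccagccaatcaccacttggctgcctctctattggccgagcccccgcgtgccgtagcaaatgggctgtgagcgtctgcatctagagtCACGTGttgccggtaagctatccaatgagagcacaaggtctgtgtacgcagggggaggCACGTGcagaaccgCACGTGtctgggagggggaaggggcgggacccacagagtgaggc
Klf15: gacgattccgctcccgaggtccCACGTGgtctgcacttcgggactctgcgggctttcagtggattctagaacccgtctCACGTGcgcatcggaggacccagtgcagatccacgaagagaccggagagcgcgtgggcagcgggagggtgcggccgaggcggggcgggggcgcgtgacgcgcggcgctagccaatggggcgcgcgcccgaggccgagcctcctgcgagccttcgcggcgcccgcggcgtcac
Per1: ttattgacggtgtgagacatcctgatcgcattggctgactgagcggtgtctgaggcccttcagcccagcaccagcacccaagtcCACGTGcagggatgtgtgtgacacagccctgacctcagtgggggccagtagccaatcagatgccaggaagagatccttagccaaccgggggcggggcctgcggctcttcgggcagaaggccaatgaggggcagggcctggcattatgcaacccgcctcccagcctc
Per3: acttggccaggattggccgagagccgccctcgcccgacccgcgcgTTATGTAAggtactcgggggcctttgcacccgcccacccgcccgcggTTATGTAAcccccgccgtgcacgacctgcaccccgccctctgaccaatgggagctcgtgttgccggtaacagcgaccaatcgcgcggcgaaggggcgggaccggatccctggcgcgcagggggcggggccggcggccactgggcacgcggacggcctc
Nfil3: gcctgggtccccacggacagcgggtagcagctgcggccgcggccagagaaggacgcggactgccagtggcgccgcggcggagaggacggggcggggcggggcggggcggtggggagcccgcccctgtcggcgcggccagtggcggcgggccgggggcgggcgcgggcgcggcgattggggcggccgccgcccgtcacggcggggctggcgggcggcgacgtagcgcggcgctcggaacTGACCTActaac

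Ciart holds 3 E-boxes within its last 116 bases, Klf15 2 and Per1 1. An E-box was found for 5 of 17 clock genes with a window (29.4%) and 5 of 17 glucocorticoid genes (29.4%), against 9.53% of genes tested in lung. Per1 counts in both lists. The D-box was found for 1 clock gene of 17 (5.88%), against 0.586% of genes tested, and the RORE for 1 of 17, against 2.08%. None of the motifs contains another, and no binding was measured.

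Between 4 and 8 weeks few genes were called. That step shares the arrays of 4 weeks with the comparison above. Of 13808 genes, 287 (2.08%) were called between 8 and 4 weeks, 127 higher and 160 lower at 8 weeks, and 2310 passed an unadjusted p of 0.05. Eln averaged 19381 ± 2579 at 1 week, 6753 ± 868 at 4 weeks and 3099 ± 799 at 8 weeks (SD, n = 4, 5 and 5), falling again after 4 weeks (-1.15, adjusted p = 0.00219). Of 27 basement membrane genes 9 fell from 4 to 8 weeks, and of 28 fibrillar collagen genes 7 fell, against 1.16% of all genes. Acta2, Fgf18 and Tnc were not called in that step (-0.08, -0.09 and -0.46). Mest (-0.70, adjusted p = 0.00105) and Peg3 (-0.65, adjusted p = 0.00267) fell further, and Hhip fell by 0.85. Of 49 mitosis genes 1 fell and none rose, with Mki67 at 1836 ± 325, 444 ± 81.8 and 413 ± 91.4 at 1, 4 and 8 weeks. MHC class II genes rose in 4 of 11 against 0.92% of all genes, with H2-Eb1 at 0.75 (adjusted p = 0.00431). Spon2 rose by 0.95 (adjusted p = 0.00342) after its fall, and Ms4a4d rose by 0.54 (adjusted p = 0.0396). Of 19 clock genes 5 fell and 2 rose after 4 weeks: Dbp fell by 1.09 (adjusted p = 0.0129) and Arntl rose by 1.33 (adjusted p = 0.00105). Klf15 and Zbtb16 were not called between 4 and 8 weeks (0.20 and -0.27).

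**Figure D4:**
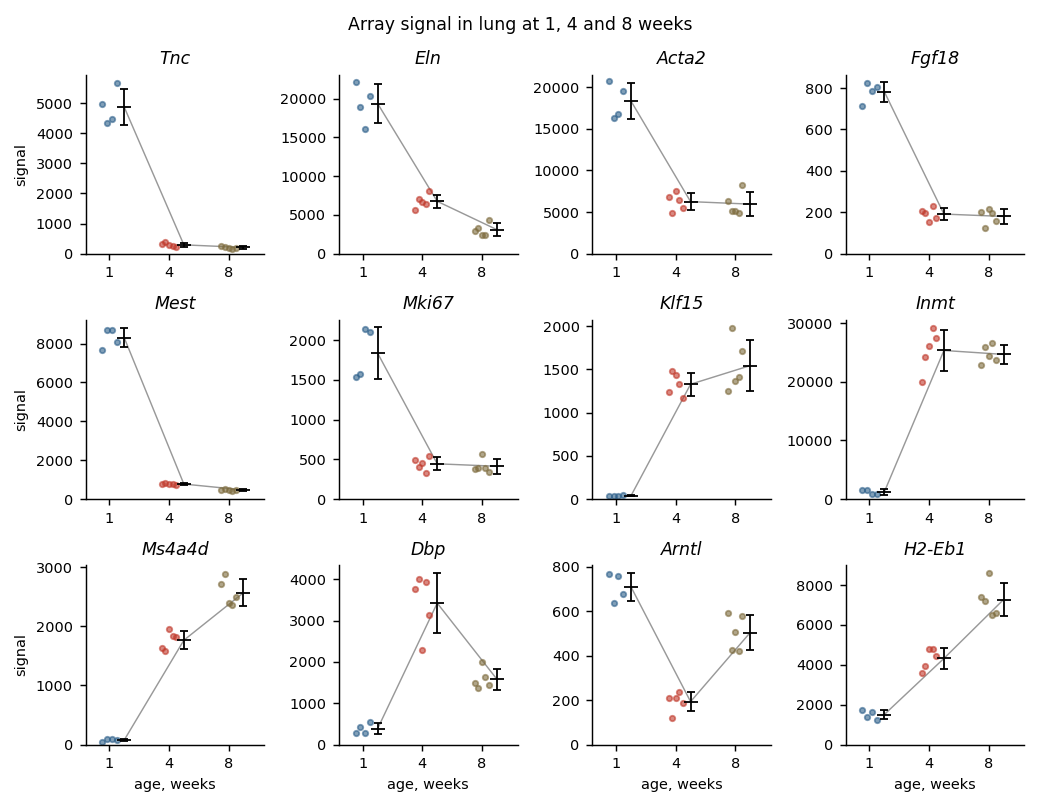
Array signals of 12 genes (linear axes from 0) at 1, 4 and 8 weeks, with a point per array, the mean and SD in black and a grey line through the means. Eln and Mest fall at both steps, Dbp is highest and Arntl lowest at 4 weeks, and Tnc, Acta2, Fgf18, Mki67, Klf15 and Inmt were not called between 4 and 8 weeks.

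The change in lung was set against that in kidney to see where the organs differ. For 3970 of 14718 genes (27.0%) the change in lung differed from that in kidney, 2460 above 0 (16.7%) and 1510 below (10.3%), in 1 limma fit of all organs. Among the 5507 genes called in lung the share was 38.4%. Lung and kidney arrays of 1 age may come from the same animals, which the fit takes as separate. No difference was called for Mki67 (lung minus kidney -0.11, SE 0.45, adjusted p = 0.897) or Top2a (0.17, SE 0.27, adjusted p = 0.708), and 2 of 49 mitosis genes were called, both below 0. Nor was a difference called for Igf2 (0.29, SE 0.25), Eln (0.31, SE 0.21) or Dbp (-0.11, SE 0.30). In simulated data with 200 changed genes, far fewer than the 3970 called here, this fit recovered 22.4% of 1.5-fold and 53.7% of 2-fold differences. These rates need not hold here, and changes without a call may still differ. In oxidative phosphorylation, the change in lung was called below that in kidney for 35 of 39 genes, beside 38 that rose in kidney. For 15 of 22 fatty acid oxidation genes it was too. Endothelial genes went the other way, with 19 of 25 pan-endothelial genes above 0, beside 20 that fell in kidney. Type 1 cell genes were above 0 in 16 of 25, fibrillar collagen genes in 19 of 28 and immediate early genes in 12 of 21. Col1a1 fell less in lung than in kidney (0.99, SE 0.28, adjusted p = 0.00747), with 4694 ± 1093 at 4 weeks and 11196 ± 1647 at 1 week in lung and 1348 ± 206 at 4 weeks and 6761 ± 2233 at 1 week in kidney (means ± SD).

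The largest differences upward among genes called in lung were those of Ms4a4d (4.22), Cxcl14 (4.03), Cyp2b10 (3.86), Serpina3n (3.78) and Bpifa1 (3.76). Cxcl14, a chemokine of epithelia, rose in lung and fell in kidney (-0.85, adjusted p = 0.00196). The largest downward were those of Agt (-5.68), Ces1d (-4.38), Slc4a1 (-4.27), Trim67 (-4.23) and Slc17a2 (-4.00). Agt averaged 25.3 ± 5.7 at 4 weeks and 1519.5 ± 144 at 1 week in lung, and 1332 ± 208 at 4 weeks and 984 ± 242 at 1 week in kidney (means ± SD), where it was not called (0.45, adjusted p = 0.0805). Ces1d, a carboxylesterase gene, rose in both organs, by 0.87 in lung and 5.25 in kidney; its change in lung was 1.82 (adjusted p = 0.0721) with the left-out array. H2-Aa rose less in lung than in kidney (-1.25, adjusted p = 9.59e-05), but the call was lost with the mean over all its probe sets (-0.51, adjusted p = 0.0886) and with the left-out lung array put back (-0.45, adjusted p = 0.614). Of 11 MHC class II genes, 5 were called above 0 and 1 below 0 for lung minus kidney, beside 11 that rose in lung and 3 in kidney. Acta2 fell less in lung (0.85, adjusted p = 0.0012), a call lost with the mean over its probe sets (0.21, adjusted p = 0.593).

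**Figure D5:**
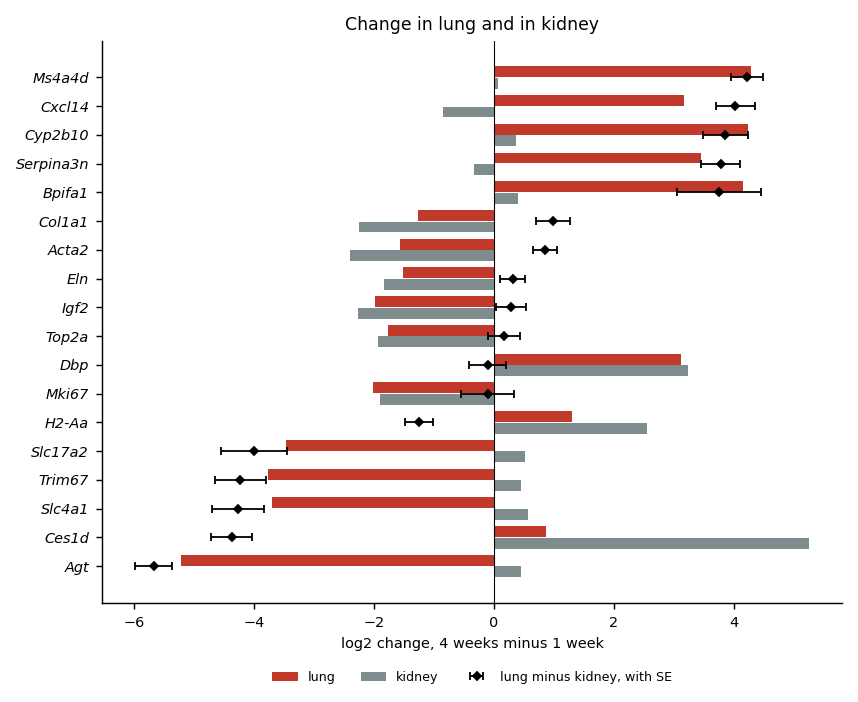
Bars are the log2 changes at 4 weeks minus 1 week in lung (red) and kidney (grey) for 18 genes, and diamonds the difference, lung minus kidney, with its SE. Agt, Slc4a1, Trim67 and Slc17a2 fell in lung and were not called in kidney, Ms4a4d, Cyp2b10, Serpina3n and Bpifa1 rose in lung and were not called in kidney, and the differences of Mki67, Top2a, Igf2, Eln and Dbp were not called.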

How the data were processed

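Total RNA of 40 mouse kidney, lung and heart samples was measured on an Affymetrix array. The deposited values are linear intensities of 45101 probe sets, and each array has a mean of 500 after trimming 2% at each end, as computed from the values. RMA and Partek 6.6 are named in the submitters' processing notes without a role, and the method that summarised the probes is not given in the sources used here. Arrays have no read depth, so the number of arrays limits the precision.

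Values were taken as log2(signal + 16). Probe sets were named through the platform annotation (34945 with 1 gene symbol, 932 with several, 9160 with none), and each of 18193 genes was represented by the probe set with the highest mean over 40 arrays. The other probe sets of the genes named, where they passed the same signal limit, had changes of the same sign. limma 3.58.1 (R 4.3.3) was fitted to the lung arrays of 1, 4 and 8 weeks without 1wk Lung 4, for genes with a mean of at least 117.9 in some lung group, which is the 40th percentile of the deposited signals. Lung and kidney changes were compared in 1 fit of all organs, which also left out 1wk Heart 5. The Benjamini-Hochberg adjustment runs over all genes tested, with a threshold of 0.05. Both fits were tested on simulated data with independent normal noise, in which 200 genes were changed. In the real data 5507 and 3970 genes were called, and the adjustment depends on that share. The rates below therefore describe the simulation and need not hold for the real data. The lung fit recovered 64.2% of 1.5-fold, 89.6% of 2-fold and 98.5% of 4-fold changes, with 3.45% of calls false. The lung minus kidney fit recovered 22.4%, 53.7% and 90.9%, with 6.72% of calls false. Samples were grouped by their titles. The design text gives 5 animals per kidney and lung group, and p-values measure the spread between these samples. Residual correlations of same-numbered lungs of both ages were -0.0776 to 0.0682, against -0.0523 to 0.125 for lungs of different numbers. No pairing by number was seen, though so few pairs cannot exclude it, and the main fit used none.

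The members and gene lists were chosen with earlier results of these data known. The text names part of the genes a rule selects: the 20 largest rises and 20 largest falls among called genes without overlap between the ages, leaving out clone and placeholder symbols; up to 5 called members of each list with the largest change; and a set of known lung genes. Alternatives were the left-out array put back, each array left out, other offsets, filters and normalizations, the mean over probe sets, array weights, a robust trend and a replicate block. Promoters are from RefSeq (GRCm38.p6).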

Additional observations from a re-analysis of the deposited data

Results flagged for a closer look

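In 17 of 380 groups of arrays examined, made by 190 genes at each of both ages, the highest or lowest array lay farther from the others than Dixon's 95% critical value allows. Chance flags about 1 in 20 such groups. At 4 weeks these were Cxcl14 on array 4wk Lung 2 (3745, above 2155 to 2414 on the others), Vcan on array 4wk Lung 4 (185, below 219 to 228 on the others), Rgs5 on array 4wk Lung 4 (814, above 600.1 to 647 on the others), Aox3 on array 4wk Lung 1 (1818, below 2239 to 2399 on the others) and Nedd4l on array 4wk Lung 2 (1784, below 2040.3 to 2133 on the others). Also at 4 weeks they were Vwf on array 4wk Lung 4 (5089.8, above 3829.9 to 4102 on the others), Nuf2 on array 4wk Lung 5 (176, above 116 to 124 on the others), Cdkn1a on array 4wk Lung 3 (2068, above 1299 to 1434 on the others) and Il7r on array 4wk Lung 3 (585, above 466 to 488 on the others). At 1 week they were Cxcl14 on array 1wk Lung 3 (219, below 273 to 284 on the others), Cpa1 on array 1wk Lung 2 (216, above 133 to 143 on the others), Pcolce2 on array 1wk Lung 2 (2560.0, below 3003 to 3064 on the others) and Thbs2 on array 1wk Lung 5 (577, above 442 to 452 on the others), and further Lama1 on array 1wk Lung 5 (155, above 106 to 110.1 on the others), Igf1 on array 1wk Lung 1 (4465, above 3597 to 3672 on the others), Mertk on array 1wk Lung 2 (748, above 661 to 671 on the others) and Scgb1a1 on array 1wk Lung 3 (26608, below 31802 to 32054 on the others).

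The change in lung was tested against that in kidney for 18 genes named in the text, of which 10 had been chosen for the largest differences between the organs, so that their calls are fixed by that choice. Over all genes 27.0% differed. The log2 difference, lung minus kidney, was above 0 for Ms4a4d (4.22), Cxcl14 (4.03), Cyp2b10 (3.86), Serpina3n (3.78), Bpifa1 (3.76), Col1a1 (0.99) and Acta2 (0.85). It was below 0 for Agt (-5.68), Ces1d (-4.38), Slc4a1 (-4.27), Trim67 (-4.23), Slc17a2 (-4.00) and H2-Aa (-1.25).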

How the results depend on the processing

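The number of genes called in lung was 5507 and stayed within 1.5 times of that in every alternative run. It was 4911 to 5424 when single arrays were left out, 3991 with the left-out array put back, and 5045 to 5707 in the others. Among these the replicate block gave 5096, although no pairing by number was seen. Genes changed at least 2-fold numbered 729 with an offset of 64 and 1137 with the left-out array put back. The lung minus kidney count was 3970, 3548 to 3993 with single arrays left out and 3623 to 4273 in the others (3906 with the replicate block). Quantile normalization moved its share above 0 to 54.5%, against 62.0%. Of 190 genes named, none changed direction past the threshold, and 16 lost their call with the left-out array put back. Each of the single-array settings kept every call made with all 9 arrays for these genes. The cause of these shifts was not tested. Dim probe sets limit the folds: a mean under 117.9 makes the fold depend on the offset.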
